A study of Mus musculus with 6 samples.

Results

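The genes described here encode the ESCRT machinery and the retromer, the protein assemblies that sort membrane cargo on endosomes. They were found by name in the deposited expression table, which held 53715 genes: all 38 genes were listed, in 39 rows, because Hgs had 2 identifiers. The cells were an immortalized mouse podocyte line of WT genotype, from kidney; podocytes are the epithelial cells that cover the capillaries of the glomerulus. For growth they were held at 33 °C in 10% serum with interferon gamma. Differentiation took 10 to 14 days at 37 °C, in 5% serum, and used type I collagen at 12 mg/ml. A group of 3 libraries came from cells transfected with an siRNA against Tfeb (a short RNA that directs the degradation of its target transcript), and the other 3 from cells transfected with scrambled siRNA. The labels name no further allele or agent, and all 6 libraries come from this line.

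ESCRT complexes act in order. ESCRT-0 gathers ubiquitin-tagged receptors on the endosome, ESCRT-I and ESCRT-II pass them on, ESCRT-III filaments pinch them into vesicles inside the endosome that go to the lysosome, and the ATPase VPS4 takes the filaments apart. Retromer works in the other direction: it rescues cargo from the same endosomes, with the help of membrane-bending sorting nexins, and returns it to the Golgi or the cell surface. TFEB, the target of the siRNA, is a transcription factor known as an activator of genes for lysosomes and autophagy. Podocytes are known to take up and sort slit diaphragm proteins such as nephrin through endosomes.

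Each library held 18062898 to 20610888 reads, derived from the table. Tfeb itself had 0.639, 0.714 and 0.822 FPKM (a level per gene length that is scaled by library depth) in Tfeb siRNA replicates 1, 2 and 3, against 1.80, 2.05 and 2.27 FPKM in scrambled siRNA replicates 1, 2 and 3. This was a log2 fold change of -1.05 (SE 0.13) on FPKM + 0.5 (limma adjusted p = 0.00148; exact two-sided permutation p = 0.1, the smallest that 3 against 3 libraries allow). The label podocyte was checked against marker genes. Synpo, Cd2ap, Actn4 and Podxl were present, while the defining slit diaphragm gene Nphs1 stayed at or below 0.268 FPKM in every library and Wt1, Ptpro and Lmx1b were also below 1 FPKM. After Tfeb siRNA, Synpo was lower (log2 fold change -0.64, limma adjusted p = 0.000876) and Podxl higher (0.82, limma adjusted p = 0.000597). Cd2ap and Actn4 did not pass an adjusted p of 0.05. The 5 tubule markers, mostly Lrp2 and Cdh16, summed to 97.5 to 105 FPKM in Tfeb siRNA and 98.5 to 118 FPKM in scrambled siRNA libraries, and the 4 mesangial markers, mostly Pdgfrb, to 31.7 to 34.3 FPKM in Tfeb siRNA and 32.5 to 34.4 FPKM in scrambled siRNA libraries. The 4 leukocyte markers summed to 6.07 to 7.25 FPKM in Tfeb siRNA and 9.14 to 11.1 FPKM in scrambled siRNA libraries, and the 5 endothelial markers stayed below 1 FPKM in all 6. Of the leukocyte markers, Csf1r was lower after Tfeb siRNA (log2 fold change -0.80, limma adjusted p = 0.000667) and Cd68 did not pass. Among the defining markers of the other types, Emcn of endothelium and Umod of tubule were at 0 in all 6 libraries and Ptprc of leukocytes did not exceed 0.0339 FPKM. The part of these markers in the results below was not tested. In bulk libraries, fewer cells of a type and less RNA per cell cannot be told apart. The first principal component held 53.0% of the variance and the second 19.3%. What each component separates was not tested. With group means removed, replicate 1 of Tfeb siRNA and replicate 1 of scrambled siRNA correlated at 0.382. Each had correlations between -0.239 and -0.201 with replicates 2 and 3 of the other group.

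Genes of this machinery were called in both directions. Of the 38 genes, 36 had a mean of at least 1 FPKM and were tested. After Tfeb siRNA 4 were higher (Ist1, Snx5, Stam and Vps26a) and 10 were lower (Chmp4c, Vps37a, Chmp1b, Mvb12b, Chmp2a, Stam2, Pdcd6ip, Vps26b, Vta1 and Snx1), at a limma adjusted p below 0.05 over 12257 tested genes, and 22 did not pass. Among all tested genes 16.9% were called higher, 16.4% lower and 33.3% in either direction. The members' share called in either direction, 38.9%, was near that background, their share higher was 11.1% and their share lower 27.8%. Their median log2 fold change was 0.0005, beside 0.02 for all tested genes, and the range ran from -0.70 for Chmp4c to 0.69 for Ist1. The values of the groups did not overlap for 21 of the 36, beside 48.7% of all tested genes. Every tested member had at least 3.46 FPKM in every library, so none passed the filter through 1 group alone.

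**Figure D1:**
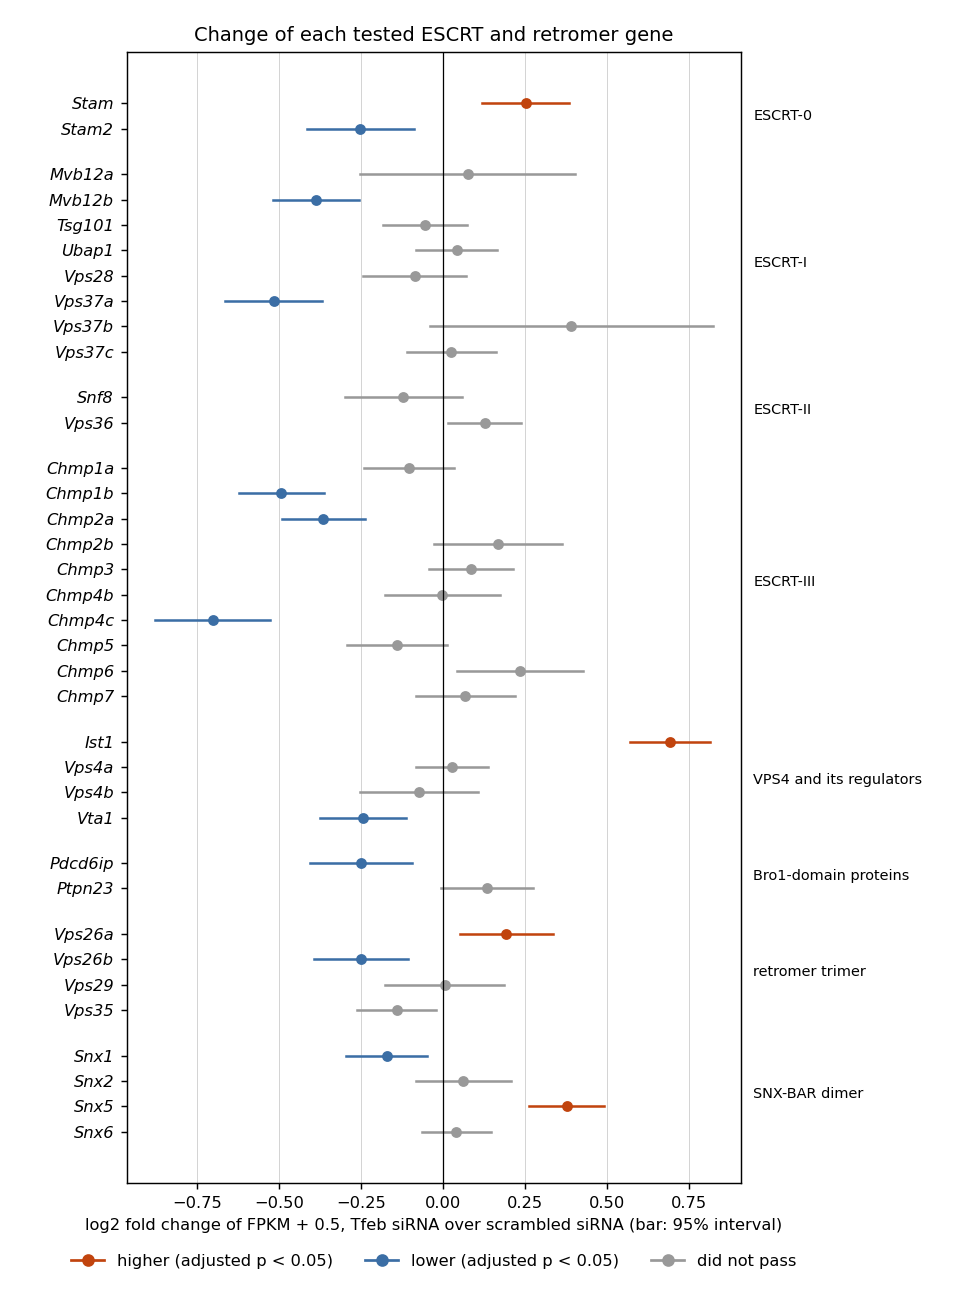
Log2 fold change of FPKM + 0.5, Tfeb siRNA over scrambled siRNA (x axis), for each of the 36 tested genes, arranged by complex. Points are limma estimates and bars their 95% intervals; the 4 orange genes were called higher, the 10 blue genes lower and the 22 grey genes did not pass.

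ESCRT-0 is the entry point, a pair of HRS (gene Hgs) and a STAM protein, both of which bind ubiquitin. Its interchangeable STAM partners moved in opposite directions. Stam (ENSMUSG00000026718, chromosome 2, 14074098 to 14149634, plus strand, mm10) had 10.2, 9.72 and 10.1 FPKM in Tfeb siRNA libraries, against 8.45, 7.90 and 8.66 FPKM in scrambled siRNA libraries. Every Tfeb siRNA library was above every scrambled one, and Stam was 1.20-fold higher (log2 fold change 0.25, SE 0.06, limma adjusted p = 0.0150). Stam2 (ENSMUSG00000055371, chromosome 2, 52691664 to 52742281, minus strand) had 12.9, 11.7 and 12.0 FPKM in Tfeb siRNA libraries, against 15.8, 13.7 and 14.5 FPKM in scrambled siRNA libraries. These groups did not overlap either, and Stam2 was 1.20-fold lower (log2 fold change -0.25, SE 0.07, limma adjusted p = 0.0284). The Stam call was lost without scrambled siRNA replicate 2 (adjusted p = 0.0501), and the Stam2 call with no filter on low values (0.0594) and without Tfeb siRNA replicate 2 (0.0875) or 3 (0.0796) or scrambled siRNA replicate 1 (0.0688) or 3 (0.0730).

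The summed level of the 2 STAM genes was 22.2 ± 0.860 FPKM in Tfeb siRNA libraries and 23.0 ± 1.32 FPKM in scrambled siRNA libraries (SD, n = 3 each). The groups overlapped. The sum was lower in the Tfeb siRNA library of each of the 3 same-numbered pairs. The titles do not give this pairing, and the difference was not tested. Hgs could not be measured from this table. It was listed at 0 in all 3 Tfeb siRNA libraries and at 0, 0.0324 and 0 FPKM in the scrambled siRNA libraries under 1 identifier, and at 0 throughout under the other. The 2 identifiers share 97.2% and 99.6% of their exon bases with each other on the same strand, and how the authors' counting treated such reads is not given in the sources used here.

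ESCRT-I is a stalk built of TSG101, VPS28, a VPS37 protein and an MVB12 or UBAP1 protein. Of its 8 tested genes 0 were higher, 2 were lower and 6 did not pass. Their share called in either direction was below the 33.3% of all tested genes (16.9% higher and 16.4% lower). Vps37a, which encodes a VPS37 form known in human cells for a role at autophagosomes as well (ENSMUSG00000031600, chromosome 8, 40511783 to 40551134, plus strand), had 16.4, 14.6 and 14.3 FPKM in Tfeb siRNA libraries, against 22.3, 21.6 and 21.5 FPKM in scrambled siRNA libraries. It was 1.44-fold lower, with a gap between the groups far wider than the spread within either (log2 fold change -0.52, SE 0.06, limma adjusted p = 0.00143). Mvb12b, which encodes an MVB12 form (ENSMUSG00000038740, chromosome 2, 33729953 to 33887946, minus strand), had 5.60, 5.83 and 5.76 FPKM in Tfeb siRNA libraries, against 7.35, 7.80 and 7.83 FPKM in scrambled siRNA libraries. It was 1.34-fold lower, again without overlap (log2 fold change -0.39, SE 0.06, limma adjusted p = 0.00259).

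The other ESCRT-I genes did not pass. Tsg101, the subunit that binds ubiquitin and viral late domains, averaged 31.0 ± 1.63 FPKM in Tfeb siRNA libraries and 32.3 ± 0.608 FPKM in scrambled siRNA libraries, with a 95% interval of the log2 fold change from -0.18 to 0.07. About 18.3% of its 50-base words recur in other genes, and how such reads were counted is not given in the sources used here. Vps28 averaged 14.1 ± 1.02 FPKM in Tfeb siRNA and 15.0 ± 0.582 FPKM in scrambled siRNA libraries, and Ubap1 21.2 ± 0.716 FPKM in Tfeb siRNA and 20.6 ± 0.741 FPKM in scrambled siRNA libraries. Vps37c averaged 25.1 ± 0.953 FPKM in Tfeb siRNA and 24.7 ± 1.22 FPKM in scrambled siRNA libraries, and Mvb12a 9.23 ± 1.27 FPKM in Tfeb siRNA and 8.76 ± 1.44 FPKM in scrambled siRNA libraries. All 4 overlapped between groups. Vps37b had 5.04, 7.40 and 6.25 FPKM in Tfeb siRNA libraries, against 3.46, 5.18 and 5.33 FPKM in scrambled siRNA libraries. Replicate 1 was the lowest of each group, and the groups overlapped (log2 fold change 0.39, SE 0.18, limma adjusted p = 0.145, or 0.0136 with the replicate number as a block). In mm10, 42.5% of Vps37b exon bases lie opposite Hip1r or Gm37939, and without known strand use their reads cannot be told apart.

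ESCRT-II joins ESCRT-I to the filament proteins. Neither of its 2 tested genes passed. Vps36, the subunit that binds ubiquitin and membrane lipid, had 36.7, 35.3 and 34.9 FPKM in Tfeb siRNA libraries, against 31.7, 33.1 and 33.1 FPKM in scrambled siRNA libraries. These values did not overlap, yet the adjusted p was 0.0835 in the limma model, at a log2 fold change of 0.13. Snf8 averaged 7.68 ± 0.698 FPKM in Tfeb siRNA libraries and 8.38 ± 0.322 FPKM in scrambled siRNA libraries (limma adjusted p = 0.256), and 10.2% of its 50-base words recur in other genes. Vps25 was below the filter, at 0.204 to 0.473 FPKM in Tfeb siRNA libraries and 0.177 to 0.322 FPKM in scrambled siRNA libraries, from 29 reads in Tfeb siRNA and 28 in scrambled siRNA libraries. Since 67.2% of its exon bases are shared with Ramp2 on the same strand, its listed level was not read as its abundance.

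ESCRT-III held the member with the largest decrease. These small charged proteins polymerise into the filaments that cut membrane necks, at endosomes and also at the last bridge between dividing cells. Of 10 tested genes 0 were higher, 3 were lower and 7 did not pass. Their share called in either direction was 30.0%, beside 33.3% of all tested genes (16.9% higher and 16.4% lower). Chmp4c, which in human cells is known to delay the final cut of division (ENSMUSG00000027536, chromosome 3, 10366907 to 10428856, plus strand), had 4.62, 3.85 and 4.28 FPKM in Tfeb siRNA libraries, against 7.07, 7.13 and 7.46 FPKM in scrambled siRNA libraries. It was 1.70-fold lower (log2 fold change -0.70, SE 0.07, limma adjusted p = 0.000948), from 2456 reads in Tfeb siRNA and 4548 in scrambled siRNA libraries. Its paralogue Chmp4b, the main filament subunit and the member with the highest mean, had 55.4, 61.2 and 66.2 FPKM in Tfeb siRNA libraries, against 58.1, 62.5 and 62.3 FPKM in scrambled siRNA libraries. The Tfeb siRNA libraries of Chmp4b lay on both sides of the scrambled ones, and the 95% interval of its log2 fold change ran from -0.18 to 0.17.

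Chmp1b, whose human protein co-assembles with IST1 (ENSMUSG00000109901), had 11.7, 10.6 and 11.1 FPKM in Tfeb siRNA libraries, against 15.9, 16.0 and 15.7 FPKM in scrambled siRNA libraries. It was 1.43-fold lower (log2 fold change -0.49, SE 0.05, limma adjusted p = 0.00105); 24.0% of its exon bases lie opposite AC140336.1. Chmp2a, a late subunit that recruits VPS4 (ENSMUSG00000033916, chromosome 7, 13032010 to 13034807, minus strand), had 35.4, 31.8 and 32.8 FPKM in Tfeb siRNA libraries, against 43.2, 43.3 and 42.7 FPKM in scrambled siRNA libraries. It was 1.29-fold lower (log2 fold change -0.37, SE 0.05, limma adjusted p = 0.00295). Both genes had groups far apart, with the scrambled libraries tightly bunched.

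Among the 7 ESCRT-III genes that did not pass, the paralogue Chmp2b had 45.1, 44.0 and 47.8 FPKM in Tfeb siRNA libraries, against 35.8, 43.1 and 43.2 FPKM in scrambled siRNA libraries (limma adjusted p = 0.165). Chmp6, which links ESCRT-II to the filament, had 10.8, 11.1 and 12.5 FPKM in Tfeb siRNA libraries, against 8.88, 10.5 and 9.68 FPKM in scrambled siRNA libraries. Chmp6 missed the limma threshold at an adjusted p of 0.0647, and passed with the replicate block (0.0397) and without scrambled siRNA replicate 2 (0.0499). Chmp1a averaged 48.0 ± 1.74 FPKM in Tfeb siRNA and 51.7 ± 2.71 FPKM in scrambled siRNA libraries, and Chmp3 56.2 ± 2.30 FPKM in Tfeb siRNA and 53.0 ± 1.91 FPKM in scrambled siRNA libraries. Chmp5 averaged 52.9 ± 3.29 FPKM in Tfeb siRNA and 58.3 ± 2.85 FPKM in scrambled siRNA libraries, and Chmp7, which also acts at the nuclear envelope, 10.7 ± 0.723 FPKM in Tfeb siRNA and 10.2 ± 0.263 FPKM in scrambled siRNA libraries. The log2 fold changes of these 4 lay between -0.14 and 0.08.

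VPS4 and its regulators held the member with the largest increase. Ist1, an ESCRT-III-like protein that binds CHMP1 proteins and VPS4 (ENSMUSG00000031729, chromosome 8, 109671325 to 109693260, minus strand), had 27.5, 25.6 and 26.5 FPKM in Tfeb siRNA libraries, against 16.2, 16.8 and 15.7 FPKM in scrambled siRNA libraries. It was 1.63-fold higher, with no overlap (log2 fold change 0.69, SE 0.05, limma adjusted p = 0.00035), from 10666 reads in Tfeb siRNA and 7100 in scrambled siRNA libraries. Vta1, the activator of VPS4 known as LIP5 (ENSMUSG00000019868, chromosome 10, 14654755 to 14705560, minus strand), had 22.0, 21.3 and 23.8 FPKM in Tfeb siRNA libraries, against 26.7, 26.5 and 26.4 FPKM in scrambled siRNA libraries. It was 1.19-fold lower (log2 fold change -0.24, SE 0.06, limma adjusted p = 0.0150); 13.5% of its exon bases lie opposite Gm16234.

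The ATPases themselves did not pass. Vps4a averaged 28.5 ± 0.640 FPKM in Tfeb siRNA libraries and 28.0 ± 0.578 FPKM in scrambled siRNA libraries, with a 95% interval of its log2 fold change from -0.08 to 0.14. Vps4b averaged 9.10 ± 0.859 FPKM in Tfeb siRNA libraries and 9.58 ± 0.289 FPKM in scrambled siRNA libraries (interval -0.25 to 0.10).

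The Bro1-domain proteins bring ESCRT-III to cargo by a side route. Pdcd6ip, which encodes ALIX (ENSMUSG00000032504, chromosome 9, 113651744 to 113708259, minus strand), had 42.8, 44.4 and 44.9 FPKM in Tfeb siRNA libraries, against 47.9, 55.2 and 54.5 FPKM in scrambled siRNA libraries. It was 1.19-fold lower (log2 fold change -0.25, SE 0.07, limma adjusted p = 0.0252). The call was lost with no filter (0.0548) and without Tfeb siRNA replicate 1 (0.0737), 2 (0.0619) or 3 (0.0557) or scrambled siRNA replicate 2 (0.0783) or 3 (0.0874). Ptpn23, which encodes HD-PTP, a partner of ESCRT-0 and ESCRT-I in receptor sorting, had 51.2, 52.5 and 47.5 FPKM in Tfeb siRNA libraries, against 47.4, 46.7 and 43.6 FPKM in scrambled siRNA libraries. It did not pass (log2 fold change 0.13, limma adjusted p = 0.130, or 0.0466 with the replicate block).

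**Figure D2:**
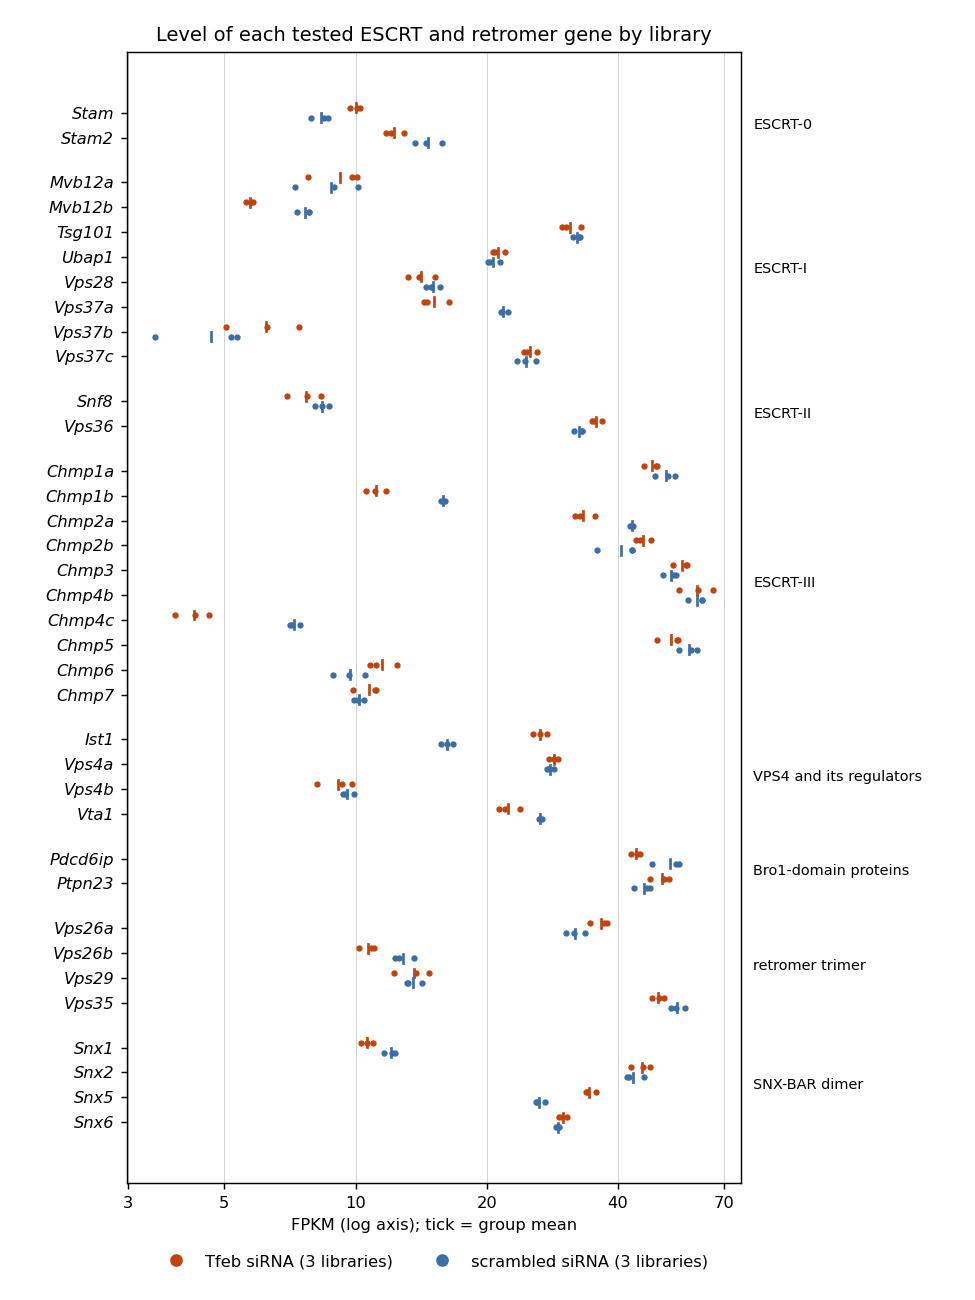
FPKM on a log axis for each of the 36 tested genes in the 3 Tfeb siRNA libraries (orange, upper row) and the 3 scrambled siRNA libraries (blue, lower row), with a tick at each group mean, arranged by complex. Ist1 and Snx5 lie to the right in all 3 Tfeb siRNA libraries, and Chmp4c, Vps37a, Chmp1b and Chmp2a lie to the left; the levels span about 3.46 to 66.2 FPKM.

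Retromer is a trimer of VPS35, VPS29 and a VPS26 protein. Its VPS26 paralogues went opposite ways, as the STAM genes did. Vps26a, the broadly used form (ENSMUSG00000020078, chromosome 10, 62455235 to 62486805, minus strand), had 37.8, 34.6 and 37.2 FPKM in Tfeb siRNA libraries, against 33.6, 30.3 and 31.8 FPKM in scrambled siRNA libraries. It was 1.14-fold higher, close to the threshold (log2 fold change 0.19, SE 0.06, limma adjusted p = 0.0469). The Vps26a call was lost with no filter (0.0831), on the TPM scale (0.113), with no trend (0.0701) and without Tfeb siRNA replicate 1 (0.126) or 3 (0.123) or scrambled siRNA replicate 2 (0.136) or 3 (0.120). Vps26b (ENSMUSG00000031988, chromosome 9, 27007771 to 27030065, minus strand) had 10.8, 10.2 and 11.0 FPKM in Tfeb siRNA libraries, against 12.3, 13.6 and 12.6 FPKM in scrambled siRNA libraries. It was 1.20-fold lower (log2 fold change -0.25, SE 0.06, limma adjusted p = 0.0189), and this call was lost without Tfeb siRNA replicate 2 (0.0604) or scrambled siRNA replicate 2 (0.0593) or 3 (0.0507).

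The shared retromer subunits did not pass. Vps35, the scaffold of the trimer, had 50.9, 48.0 and 49.8 FPKM in Tfeb siRNA libraries, against 57.0, 53.0 and 54.4 FPKM in scrambled siRNA libraries. The groups did not overlap, and its log2 fold change of -0.14 had a limma adjusted p of 0.0722, or 0.0353 with the replicate block. Vps29 averaged 13.6 ± 1.26 FPKM in Tfeb siRNA libraries and 13.5 ± 0.624 FPKM in scrambled siRNA libraries (95% interval of the log2 fold change -0.18 to 0.19). Per length, Vps35 was the most abundant retromer transcript in every library, followed by Vps26a.

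The SNX-BAR proteins, in pairs of SNX1 or SNX2 with SNX5 or SNX6, bend the membrane into the tubules that carry retrieved cargo. Snx5, whose human protein binds the mannose 6-phosphate receptor directly (ENSMUSG00000027423, chromosome 2, 144250123 to 144270906, minus strand), had 33.8, 35.6 and 33.9 FPKM in Tfeb siRNA libraries, against 26.1, 27.3 and 26.0 FPKM in scrambled siRNA libraries. It was 1.30-fold higher, without overlap (log2 fold change 0.38, SE 0.05, limma adjusted p = 0.00184). Snx1 (ENSMUSG00000032382, chromosome 9, 66088133 to 66126587, minus strand) had 10.3, 10.6 and 11.0 FPKM in Tfeb siRNA libraries, against 12.1, 12.3 and 11.7 FPKM in scrambled siRNA libraries. It was 1.13-fold lower at a limma adjusted p of 0.0412 (log2 fold change -0.17, SE 0.05). Leaving out any 1 of the 6 libraries ended the Snx1 call (up to 0.120, without scrambled siRNA replicate 2), as did no filter (0.0569) and no trend (0.0566). Snx2 averaged 45.3 ± 2.32 FPKM in Tfeb siRNA libraries and 43.4 ± 2.23 FPKM in scrambled siRNA libraries, and Snx6 29.9 ± 0.628 FPKM in Tfeb siRNA libraries and 29.1 ± 0.216 FPKM in scrambled siRNA libraries; neither passed.

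FPKM values were also summed over each complex, as a description without a test. ESCRT-III summed to 335 ± 12.4 FPKM in Tfeb siRNA libraries and 351 ± 8.71 FPKM in scrambled siRNA libraries, and ESCRT-I to 128 ± 3.47 FPKM in Tfeb siRNA libraries and 136 ± 4.68 FPKM in scrambled siRNA libraries. ESCRT-II summed to 43.6 ± 0.328 FPKM in Tfeb siRNA libraries and 41.3 ± 0.492 FPKM in scrambled siRNA libraries, and the Bro1-domain genes to 94.4 ± 2.28 FPKM in Tfeb siRNA libraries and 98.5 ± 3.28 FPKM in scrambled siRNA libraries. The retromer trimer summed to 110 ± 4.67 FPKM in Tfeb siRNA libraries and 113 ± 3.66 FPKM in scrambled siRNA libraries. The SNX-BAR genes summed to 120 ± 0.915 FPKM in Tfeb siRNA libraries and 111 ± 2.39 FPKM in scrambled siRNA libraries, and VPS4 and its regulators to 86.5 ± 3.11 FPKM in Tfeb siRNA libraries and 80.4 ± 1.10 FPKM in scrambled siRNA libraries, sums that include Snx5 and Ist1.

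Many positions in these complexes can be filled by either of several paralogues, so the makeup of each position was compared as a gene's share of its family's summed FPKM, a quantity that the scaling of a library does not change. Over 10 families 12 shares were compared, and the 2 groups did not overlap for 11 of them. For gene levels the groups did not overlap for 48.7% of all tested genes. No such rate was computed for shares in other paralogue families, so the count cannot be read as particular to this machinery. The VPS37 shares of a library add up to the whole, so they depend on each other. Each of these 11 had an exact two-sided permutation p of 0.1, the smallest possible here (0.109 after Benjamini-Hochberg adjustment over the 12), so none could pass 0.05. The shares rest on the same FPKM values as the fold changes above and are not separate evidence. No 50-base word was shared within any of the 10 families (0), so reads of that length could be placed within a family.

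Within ESCRT-0, Stam made up 44.2%, 45.3% and 45.5% of STAM transcripts in Tfeb siRNA libraries, against 34.8%, 36.5% and 37.4% in scrambled siRNA libraries, a difference of 8.77 percentage points. Within the VPS37 position, Vps37a made up 35.9%, 30.4% and 31.6% in Tfeb siRNA libraries, against 45.3%, 42.2% and 40.7% in scrambled siRNA libraries. Vps37c held the largest share there, at 54.0 ± 0.781% in Tfeb siRNA libraries and 48.2 ± 0.829% in scrambled siRNA libraries. The VPS37 sum was 46.4 ± 1.51 FPKM in Tfeb siRNA libraries and 51.2 ± 1.75 FPKM in scrambled siRNA libraries, without overlap. Vps37b made up 13.4 ± 2.20% in Tfeb siRNA libraries and 9.07 ± 1.78% in scrambled siRNA libraries.

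In the filament, Chmp2a made up 44.0%, 42.0% and 40.7% of the CHMP2 sum in Tfeb siRNA libraries, against 54.7%, 50.1% and 49.7% in scrambled siRNA libraries. Chmp4b made up 93.4 ± 0.980% of the CHMP4 sum in Tfeb siRNA libraries and 89.4 ± 0.319% in scrambled siRNA libraries, a difference of 4.04 percentage points, or 11.3 on derived reads, which are not per length. Chmp1a made up 81.2 ± 0.434% of the CHMP1 sum in Tfeb siRNA libraries and 76.5 ± 1.01% in scrambled siRNA libraries. That sum was 59.1 ± 2.26 FPKM in Tfeb siRNA libraries and 67.5 ± 2.67 FPKM in scrambled siRNA libraries, without overlap. Mvb12a, which did not pass on its own, made up 61.5 ± 2.97% of the MVB12 sum in Tfeb siRNA libraries and 53.1 ± 3.41% in scrambled siRNA libraries. The MVB12 sum overlapped between groups, at 15.0 ± 1.38 FPKM in Tfeb siRNA libraries and 16.4 ± 1.69 FPKM in scrambled siRNA libraries. It was lower in the Tfeb siRNA library of each same-numbered pair, which was not tested.

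In retromer, Vps26a made up 77.7%, 77.2% and 77.1% of the VPS26 sum in Tfeb siRNA libraries, against 73.2%, 69.0% and 71.6% in scrambled siRNA libraries. The VPS26 sum overlapped between groups, at 47.2 ± 2.13 FPKM in Tfeb siRNA libraries and 44.7 ± 1.03 FPKM in scrambled siRNA libraries. It was higher in the Tfeb siRNA library of each of the 3 same-numbered pairs, which was not tested either. Snx5 made up 53.5 ± 0.330% of the Snx5 and Snx6 sum in Tfeb siRNA libraries and 47.6 ± 0.859% in scrambled siRNA libraries, and that sum was 64.3 ± 1.61 FPKM in Tfeb siRNA libraries, against 55.5 ± 0.517 FPKM in scrambled siRNA libraries, without overlap. Snx1 made up 19.0 ± 1.08% of the Snx1 and Snx2 sum in Tfeb siRNA libraries and 21.7 ± 0.830% in scrambled siRNA libraries. The exception was the ATPase: Vps4a made up 75.8 ± 1.35% of the VPS4 sum in Tfeb siRNA libraries and 74.5 ± 0.794% in scrambled siRNA libraries, with overlap (exact permutation p = 0.2).

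**Figure D3:**
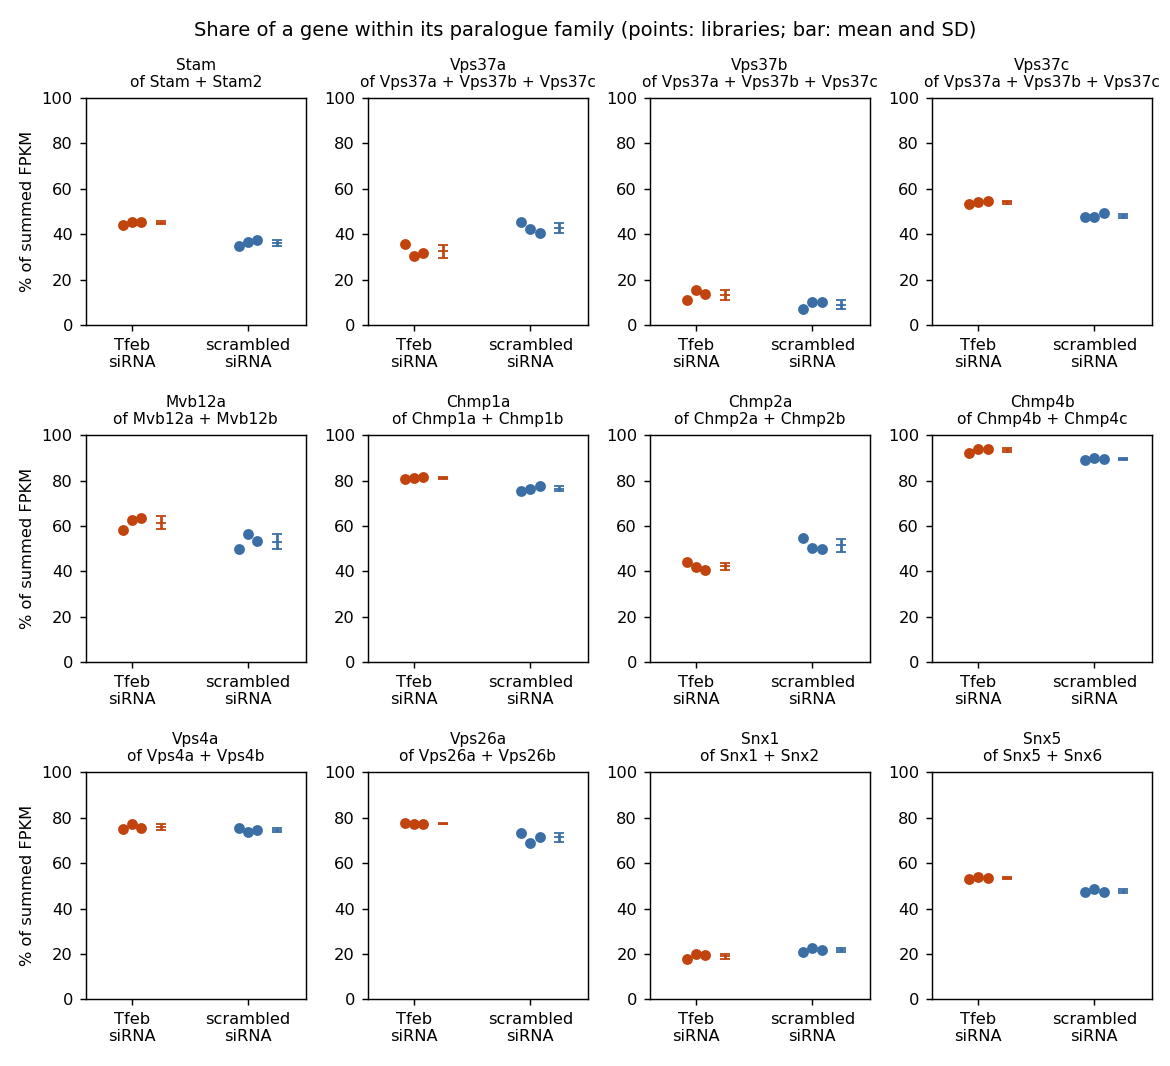
Percent of its family's summed FPKM held by each of 12 genes (y axis, 0 to 100) in the 3 Tfeb siRNA libraries (left) and the 3 scrambled siRNA libraries (right); points are libraries, and the bar beside them is mean and SD. The groups do not overlap for 11 of the 12, with Vps4a as the exception, and the differences run from -10.1 percentage points for Vps37a to 8.77 for Stam.

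The 3′ UTRs of the members were searched for 7-base words on the transcript strand, in the longest annotated form of GENCODE M21. Earlier work on these libraries had picked 4 words because genes that hold them fell and 4 because genes that hold them rose, so what follows describes the members and is not separate evidence. The falling words were CTACATA, held by 10.6% of the tested genes searched, its shifted form TACATAA, held by 12.6%, and likewise GGCCATG (13.5% of them) with its shifted form GCCATGA (11.0%). The rising words were TCGGAGA (2.62%) with its shifted form CGGAGAA (3.19%), and TGTCACG (3.62%) with its shifted form GTCACGA (1.84%). Shifted forms overlap by all but 1 base. Of the 36 tested members 11 (30.6%) held a falling word, beside 33.5% of 10474 tested genes searched. Of these 11, 6 were lower (Chmp4c, Vps37a, Chmp1b, Mvb12b, Stam2 and Snx1), 2 were higher (Stam and Vps26a) and 3 did not pass. Of the 25 without a falling word 4 were lower and 2 higher. Among tested genes, 25.7% of those with a falling word were lower and 14.6% higher, beside 13.9% and 19.6% of those without. The 3′ UTRs differed in length too, with medians of 3017 bases in members with a falling word and 889 bases in members without (2411 bases in tested genes with and 970 bases in those without), and the part of length in these counts was not tested.

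The sites in 6 members called lower or higher are shown: Chmp4c and Vps37a, both STAM genes, whose transcripts moved in opposite directions although each holds the same word, and Mvb12b and Vps26a, which also moved in opposite directions and share GGCCATG. Chmp1b, which holds CTACATA and TACATAA, is not shown, nor is Snx1, which holds GCCATGA. Mvb12b also holds GCCATGA, at bases 989 and 3132 of its 3′ UTR, sites that are not shown. Vps26a holds no falling word other than GGCCATG. Each line gives the word in capitals with 11 bases on either side, 5′ to 3′ on the transcript strand, from GENCODE M21 on mm10.
Chmp4c: aaattattgaaCTACATAtaagacataaa
Vps37a: tttttcttactCTACATAtttttggtaat
Stam2: tttcctgcctgCTACATAtgcagacactg
Stam: agcccaccaggCTACATAgtgagaccctg
Mvb12b: cagtggttagaGGCCATGggcagctactt
Vps26a: tttctaaggacGGCCATGttctccttcat
The windows are at chr3:10390002-10390030 (plus strand) for Chmp4c, chr8:40547556-40547584 (plus) for Vps37a, chr2:52693885-52693913 (minus) for Stam2, chr2:14148757-14148785 (plus) for Stam, chr2:33732300-33732328 (minus) for Mvb12b and chr10:62455438-62455466 (minus) for Vps26a. The Chmp4c word starts at base 40 of a 3′ UTR of 5364 bases, and the Stam word at base 2288 of 3154.

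Ist1, the member with the largest increase, was the only tested member with a word of the rising set. That was 2.78% of the members searched, beside 9.36% of the tested genes searched. It holds TGTCACG at bases 257 and 478 of a 3′ UTR of 1123 bases. Both sites are shown with the word in capitals, at chr8:109672174-109672202 and chr8:109671953-109671981 (minus strand).
Ist1, base 257: gtctgtcttccTGTCACGtggatccttgg
Ist1, base 478: caggaagccacTGTCACGgttcctggagg
Among tested genes with a rising word 31.7% were higher, beside 16.5% of those without. The rising words had been picked for such increases, so this is not separate evidence.

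**Figure D4:**
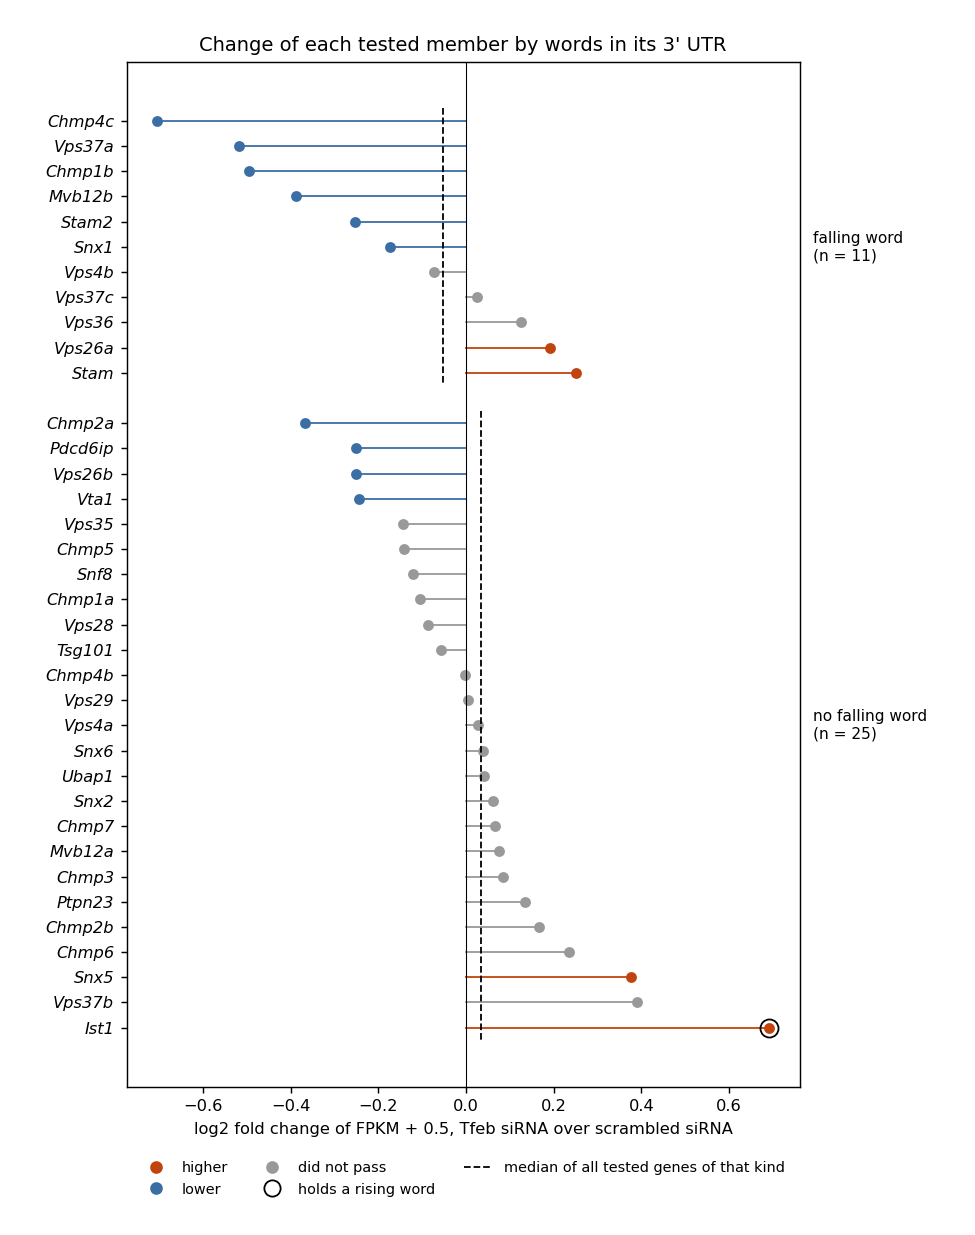
Log2 fold change of FPKM + 0.5, Tfeb siRNA over scrambled siRNA (x axis), of the 11 tested members whose longest annotated 3′ UTR holds a falling word (upper block) and the 25 without (lower block), coloured by call. The dashed line is the median of all tested genes of that kind (-0.05 and 0.03); 6 of the upper and 4 of the lower block were called lower, and the ring marks Ist1.

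Promoters were searched for CACGTG, the core of the motif that TFEB is known to bind, and for its longer form TCACGTG, on both strands from 250 bases before to 50 after each start in RefSeq (GRCm38.p6). Promoters matched for 28 of the 38 members, of which 3 (10.7%) held CACGTG and 2 (7.14%) TCACGTG, beside 12.1% and 7.35% of 8495 tested genes. Members without a matched promoter could not be searched. Among them were Chmp4c, Vps37a and Chmp1b, the members with the largest decreases. The 3 with CACGTG were Pdcd6ip, lower after Tfeb siRNA, and Snx5 and Vps26a, both higher. These promoters are shown because their genes were called in opposite directions; CACGTG is in capitals, which marks the letters only and not a bound site.
Pdcd6ip: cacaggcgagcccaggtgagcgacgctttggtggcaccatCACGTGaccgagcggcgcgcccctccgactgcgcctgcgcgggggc
Snx5: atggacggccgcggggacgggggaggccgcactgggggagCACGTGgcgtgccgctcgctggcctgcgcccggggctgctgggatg
Vps26a: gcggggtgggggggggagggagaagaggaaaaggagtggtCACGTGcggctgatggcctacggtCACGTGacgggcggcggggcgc
The windows are at chr9:113708252-113708337 for Pdcd6ip, chr2:144270577-144270662 for Snx5 and chr10:62486728-62486813 for Vps26a, all on the minus strand. The motif begins 38 bases before a RefSeq start in Pdcd6ip and 50 before a RefSeq start in Snx5. That Snx5 start is downstream of the gene start given above (144270906), so the Snx5 motif lies inside the listed gene span. Vps26a has 3 distinct copies over its annotated starts, and 2 of them are in the window shown. Both of these also lie inside the listed gene span, and the first begins 32 bases after another RefSeq start of Vps26a.

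Partners and cargo outside the 38 genes were read from 5 lists. Of 24 ESCRT partners 23 were tested, with 3 higher, 4 lower and 16 not passing (30.4% called in either direction, beside 33.3% of all tested genes). Nedd4, a ubiquitin ligase that tags ESCRT cargo, averaged 181 ± 7.88 FPKM in Tfeb siRNA libraries and 125 ± 4.08 FPKM in scrambled siRNA libraries (1.45-fold higher, limma adjusted p = 0.000915). Arrdc4, an arrestin-related adaptor for such ligases, averaged 15.0 ± 1.06 FPKM in Tfeb siRNA libraries and 9.44 ± 0.712 FPKM in scrambled siRNA libraries (1.59-fold higher, limma adjusted p = 0.00137). Pdcd6, which encodes the calcium-binding partner of ALIX known as ALG-2, averaged 19.2 ± 0.538 FPKM in Tfeb siRNA libraries and 29.6 ± 0.412 FPKM in scrambled siRNA libraries. It was 1.54-fold lower (limma adjusted p = 0.000353). The transcripts of ALIX and of this partner were thus both lower after Tfeb siRNA, but the Pdcd6ip call was lost in 6 of 13 processing alternatives. Tom1l2, an adaptor related to ESCRT-0, averaged 10.0 ± 0.138 FPKM in Tfeb siRNA libraries and 14.4 ± 0.287 FPKM in scrambled siRNA libraries (limma adjusted p = 0.000667).

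All 15 retromer partners were tested, with 6 higher, 2 lower and 7 not passing (53.3% called, beside 33.3% of all tested genes, of which 16.9% were higher and 16.4% lower) and a median log2 fold change of 0.10, beside 0.02. Washc2, the FAM21 tail that ties the actin-nucleating WASH complex to VPS35, averaged 23.7 ± 0.878 FPKM in Tfeb siRNA libraries and 17.3 ± 0.763 FPKM in scrambled siRNA libraries (1.37-fold higher, limma adjusted p = 0.00161). Washc4, another WASH subunit, averaged 9.16 ± 0.503 FPKM in Tfeb siRNA libraries and 11.9 ± 0.576 FPKM in scrambled siRNA libraries (1.30-fold lower, limma adjusted p = 0.00573). Dnajc13, a J-domain protein of endosomes, was 1.24-fold higher (17.2 ± 0.794 FPKM in Tfeb siRNA and 13.9 ± 0.666 FPKM in scrambled siRNA libraries, limma adjusted p = 0.00936). Tbc1d5, the RAB7 regulator that binds retromer, was 1.32-fold lower (2.58 ± 0.166 FPKM in Tfeb siRNA and 3.39 ± 0.141 FPKM in scrambled siRNA libraries, limma adjusted p = 0.0162).

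Commander and retriever form a recycling route parallel to retromer. Of 15 listed genes 13 were tested, with 1 higher, 3 lower and 9 not passing (30.8% called, beside 33.3% of all tested genes). Vps35l, listed in the table as 9030624J02Rik, averaged 7.37 ± 0.210 FPKM in Tfeb siRNA libraries and 6.42 ± 0.0861 FPKM in scrambled siRNA libraries (1.15-fold higher, limma adjusted p = 0.0324). Commd8 averaged 10.4 ± 0.444 FPKM in Tfeb siRNA libraries and 13.3 ± 1.34 FPKM in scrambled siRNA libraries, and Commd3 34.6 ± 1.47 FPKM in Tfeb siRNA libraries and 42.1 ± 0.963 FPKM in scrambled siRNA libraries, both lower (limma adjusted p = 0.0180 and 0.00697).

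Early endosome tethers and lipid kinases gave 1 higher, 3 lower and 10 not passing of 14 tested (28.6% called, beside 33.3% of all tested genes). Rabep1, a RAB5 effector, averaged 12.2 ± 0.313 FPKM in Tfeb siRNA libraries and 9.12 ± 0.440 FPKM in scrambled siRNA libraries (limma adjusted p = 0.00244). Rab5b, a GTPase of early endosomes, averaged 17.0 ± 1.22 FPKM in Tfeb siRNA libraries and 23.8 ± 0.213 FPKM in scrambled siRNA libraries, and Appl1, an adaptor on RAB5 endosomes, 7.48 ± 0.372 FPKM in Tfeb siRNA libraries and 10.1 ± 0.808 FPKM in scrambled siRNA libraries, both lower (limma adjusted p = 0.00188 and 0.00636).

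Known cargoes of retromer or ESCRT gave 4 higher, 2 lower and 5 not passing of 11 tested of 12 (54.5% called, beside 33.3% of all tested genes). Tfrc, the transferrin receptor, averaged 43.7 ± 3.62 FPKM in Tfeb siRNA libraries and 23.9 ± 0.197 FPKM in scrambled siRNA libraries (1.83-fold higher, limma adjusted p = 0.000372). Sorl1, a sorting receptor carried by retromer, averaged 5.47 ± 0.325 FPKM in Tfeb siRNA libraries and 3.83 ± 0.638 FPKM in scrambled siRNA libraries (1.43-fold higher, limma adjusted p = 0.0170). Egfr, a receptor degraded through ESCRT, averaged 52.3 ± 4.72 FPKM in Tfeb siRNA libraries and 65.2 ± 4.31 FPKM in scrambled siRNA libraries (limma adjusted p = 0.0242), and M6pr, a mannose 6-phosphate receptor, 39.3 ± 1.02 FPKM in Tfeb siRNA libraries and 44.5 ± 1.62 FPKM in scrambled siRNA libraries (0.0340), both lower. These are transcript levels, and no protein, trafficking or cargo measurement was part of the data.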

How the data were processed

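The deposited table held FPKM values with 1 column per library and each gene's position and length, per the file headers; no other per-sample column was present (0 unused). Per the submitters' processing notes the genome was mm10. Aligner, counter, annotation and use of strand: not given in the sources used here. FPKM times gene length gave whole reads in each library (tolerance 1e-06), from which depth was derived. Titles gave the groups. The labels do not say whether replicates were separate cultures; p-values thus reflect the spread among these 6 libraries, possibly a technical one.

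The groups were compared with limma 3.58.1 (R 4.3.3) on log2(FPKM + 0.5), which understates changes of low genes, over 12257 genes with a mean of at least 1 FPKM, with eBayes and a mean-variance trend, two-sided, and Benjamini-Hochberg adjustment over all of them; x-fold values are plain ratios of mean FPKM. Errors are SD over 3 libraries unless named SE. The fit was tested on simulated data. Same-numbered libraries of the 2 groups had residual correlations of 0.382, 0.129 and 0.166, all above 0.1. The numbers were therefore treated as a possible pairing, from the data and not from the titles. The main limma calls and the permutation tests did not use this pairing. Under it the smallest possible permutation p would be larger than 0.1. Only number 1 stood clearly apart: Tfeb siRNA replicate 2 with scrambled siRNA replicate 3 gave 0.106, and Tfeb siRNA replicate 3 with scrambled siRNA replicate 2 gave 0.0996. The cut at 0.1 thus did not tell numbers 2 and 3 apart. The value with the replicate block is printed where a call changed with it. Members, lists and words were chosen with earlier results of these data known. All 38 members are named, and in each further list up to 2 called genes in each direction, those of largest log2 fold change. Exon overlaps, shared 50-base words and 3′ UTRs came from GENCODE M21 and promoters from RefSeq (GRCm38.p6). Some podocyte markers are not reported here.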

Additional observations from a re-analysis of the deposited data

How the results depend on the processing

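Across 13 alternatives (pseudocounts of 0.1 and 1, no filter, a mean of at least 5 FPKM, TPM, no trend, the replicate block and each library left out in turn), the calls of Ist1, Snx5, Chmp4c, Vps37a, Chmp1b, Mvb12b, Chmp2a and Vta1 held in all, and no called member changed direction. Of the values computed for the 36 members, 433 kept their side of the threshold, 30 lost the call and 5 gained it. With the replicate block 7 members were higher and 11 lower, in place of 4 and 10, the gains being Vps37b, Chmp6, Ptpn23 and Vps35, and no other member's call changed; among all genes 2542 were higher and 2386 lower, in place of 2075 and 2005. Leaving out each library gave 3 to 4 members higher and 6 to 8 lower, with 6 lower without Tfeb siRNA replicate 2 and 6 without scrambled siRNA replicate 3, and 1412 to 1703 genes higher and 1371 to 1720 lower. With no filter 3 members were higher and 7 lower. The Tfeb call held in each alternative that could be run; at a mean of at least 5 FPKM Tfeb was not in the model. Where derived reads replaced FPKM, so that longer genes weigh more, the share differences were 6.63 percentage points for Vps37c (5.81 with FPKM), 11.3 for Chmp4b (4.04) and -3.84 for Snx1 (-2.72), and the other 9 moved by less than 1 SD of the share, pooled over both groups (for Vps26a, 7.45 on reads and 6.04 with FPKM). Hgs and Vps25 could not be read from this table, and 3 libraries a group limit the precision of every value.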
